A study of Mus musculus with 211 samples.

Results

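Iron handling genes were examined in single cells sorted from adult mouse cochleae. The 7 genes were chosen by name with earlier values of these cells known, and are 7 of 48709 genes in the count table, each found by its Ensembl identifier. They are the ferritin subunits Fth1 and Ftl1, the transferrin receptor Tfrc, the iron transporters Slc11a1 and Slc40a1, the heme oxygenase Hmox1 and the iron sensing RNA-binding protein Ireb2. All cells came from Lfng-EGFP mice of the CD1 strain, whose transgene places EGFP under the control of Lfng, at P60 (postnatal day 60) or P120 (postnatal day 120), and the labels give no treatment. GFP-positive cells were sorted by FACS and captured on the Fluidigm C1, a microfluidic chip that makes full-length cDNA from single cells, and each capture pooled the cochleae of several mice. There are 211 cells in 12 captures, 8 of P60 and 4 of P120 mice, and the capture was taken as the replicate.

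Iron enters most cells bound to transferrin, which Tfrc carries into the cell. Iron that is not used at once is stored inside a shell of ferritin heavy chains (Fth1) and light chains (Ftl1), and leaves the cell through ferroportin (Slc40a1). Both ends of this path are controlled after transcription by iron regulatory proteins, one of which is encoded by Ireb2, that bind hairpins called iron responsive elements when iron is scarce. Bound near the start of a ferritin mRNA they hold back translation, and bound in the 3' UTR of the Tfrc mRNA they protect it from decay. In neutrophils, ferritin and the secreted iron binding proteins lactoferrin and lipocalin 2 are known as abundant products, and dividing cells are known for a high demand for iron.

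The depth of a cell varied between 41 and 5361476 reads on genes (median 736455), so levels and shares of cells were compared after each cell was thinned at random to 50000 reads. A total of 164 cells reached that depth, 80 at P60 and 84 at P120, and 10 of 12 captures held at least 3 of them. At this depth 1 read equals 20 CPM (counts scaled to a common total of reads on genes), and no molecular identifiers were used, so that intervals cover counting error only. The cells are labelled adult cochlear supporting cells, but a read of at least 3 of 10 leukocyte genes was found in 162 of 164 cells and a read of at least 3 of 15 supporting cell genes in 10. The 10 genes of the neutrophil list held 15.2% of all reads and the 15 supporting cell genes 0.0512%, with Hes5 at 0 reads. The erythroid list of 8 genes held 0.00115% of all reads, with Hba-a2 and Klf1 at 0. Hence the values below are those of the sorted cells as they are, and no cell type is given to them.

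Hairpins with the pattern of an iron responsive element are shown because such elements mark which mRNAs the iron regulatory proteins are known to bind. The principal transcript of each gene in GENCODE vM21, which uses the GRCm38 build, was searched on its own strand for a hairpin of 17 bases, which is a C, then 5 bases of a stem, the letters CAGTG, any base, and 5 bases that pair with the stem, G with T allowed. The search found 7 such hairpins, in 4 of the 7 genes. Fth1, Ftl1 and Slc40a1 each held 1 in the 5' UTR of exon 1, and Tfrc held 4 in the 3' UTR of its last exon, exon 19. Each is given from 5' to 3' with 5 more bases on both sides, with the loop of 6 bases in capitals, and the positions include these flanks.
Fth1, chr19:9982733-9982759, plus strand, 5' UTR: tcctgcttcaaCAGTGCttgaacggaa
Ftl1, chr7:45459780-45459806, minus strand, 5' UTR: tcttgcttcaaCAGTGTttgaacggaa
Slc40a1, chr1:45925466-45925492, minus strand, 5' UTR: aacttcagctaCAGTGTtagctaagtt
Tfrc, chr16:32631220-32631246, plus strand, 3' UTR: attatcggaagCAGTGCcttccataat
Tfrc, chr16:32631599-32631625, plus strand, 3' UTR: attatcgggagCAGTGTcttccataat
Tfrc, chr16:32631664-32631690, plus strand, 3' UTR: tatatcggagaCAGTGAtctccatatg
Tfrc, chr16:32631711-32631737, plus strand, 3' UTR: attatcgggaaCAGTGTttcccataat

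The hairpin was rare among the 21695 principal transcripts of protein-coding genes. It was found in 1.18% of them, in 0.107% of 19677 5' UTRs and in 0.524% of 19861 3' UTRs, and Tfrc was the only transcript with 3 or more. Slc11a1, Hmox1 and Ireb2 held no such hairpin in the transcript searched. Among 61 other genes of iron handling, Alas2, which starts heme synthesis in erythroid cells, held 1 in its 5' UTR, and Keap1 held 1 in its coding sequence. A match is a description of the sequence and was not tested for binding in these cells. Elements with another stem or loop, or in another transcript of a gene, would be missed, so the counts are those of this pattern alone.

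Ferritin heavy chain was among the most abundant transcripts. Fth1 (chr19:9980598-9985098, plus strand) took 1040400 reads in all, or 0.473% of reads on genes, and ranked 17 of all genes. At 50000 reads every one of 164 cells held a read of Fth1 (100%, exact interval 97.8 to 100%), while the level ranged from 20 to 49700 CPM. The median cell held 2840 CPM, with quartiles of 575 and 8070 CPM, and the 3 highest cells together held 11.5% of the Fth1 reads. Over captures, the mean Fth1 level was 20806 CPM in 20c, 9572 in 21c, 8880 in 19c, 6361 in 9c, 4353 in 31 and 2564 in 40 at P60. At P120 its mean was 12171 CPM in 36, 6873 in 38, 4694 in 32 and 2981 in 28. The captures of both ages overlapped, and among P60 captures the 4 shown here of the sequencing run that held only P60 cells (9c, 19c, 20c and 21c) lay above 31 and 40 of the other runs. In summed reads of all cells this order did not hold, with 9c at 3353 and 10c of the same run at 260 CPM against 4423 CPM in 31.

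Ferritin light chain was lower and followed the heavy chain in rank across cells. Ftl1 (chr7:45457944-45459884, minus strand) had a read in 152 of 164 cells (92.7%, 87.6 to 96.2%) with a median of 530 CPM and a highest cell of 6540 CPM. Over captures its mean ran from 763 CPM in 40 to 2356 CPM in 21c at P60 and from 486 CPM in 32 to 1312 CPM in 38 at P120. Per kb of transcript, the mean level was 6570 CPM for Fth1 and 1003 CPM for Ftl1. Across the 164 cells the rank correlation of Fth1 and Ftl1 was 0.515, and its mean within the 7 captures of at least 10 cells was 0.394. These cells share captures and reads of 1 library each, so the value is a description.

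Reads on near copies limit the ferritin values, more so for the light chain. Of 14 other entries named Fth or Ftl, 6 had reads, and the 3 with most were Ftl2-ps with 10625, Ftl1-ps1 with 8366 and Fth-ps2 with 2201 reads. Ftl1-ps1 matched the Ftl1 transcript at 99.6% over 910 bases and Ftl2-ps at 98.7% over 552 bases. All genes whose transcripts aligned to Ftl1 over at least 100 bases on the same strand held 12.3% as many reads as Ftl1, against 0.350% for Fth1. Reads that the authors' counting could place on Ftl1 or on such a copy cannot be told apart here.

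The transferrin receptor was read in few cells, and most of its reads came from 1 capture. Tfrc (chr16:32608920-32632794, plus strand) had a read in 28 of 164 cells (17.1%, 11.7 to 23.7%), and in 52 of 211 cells with all reads. With at least 10 of 50000 reads asked for, the shares were 8.54% for Tfrc, 15.9% for Slc40a1 and 3.66% for Slc11a1, and another random draw gave 98.2% for Fth1. Of its 1097 thinned reads, 899 came from capture 28, 49.04% from 1 cell and 73.02% from 3 cells. Its mean was 580 CPM in capture 28, 97.3 in 40, 40 in 20c, 37.8 in 9c, 33.3 in 32 and 5.56 in 31, with 0 thinned reads in 19c, 21c, 36 and 38. By counting error alone, a count of 0 allows up to 3 reads over the cells of a capture. The share of cells with a read was 32.3% in capture 28 and 28.6% or less in the other captures. The 3 highest of its 31 cells, at 10760, 3520 and 1560 CPM, held 88.1% of its Tfrc reads, and the other 28 had a mean of 76.4 CPM, a split made after the values were seen. The cell at 10760 CPM held 41980 CPM of the neutrophil list and the other two held 140 and 60 CPM, and the part of such cells in the level was not tested. Without capture 28, 18 of 133 cells (13.5%) held a read with a mean of 29.8 CPM, against 134 CPM over all cells.

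Of the exporters and vesicle transporters, Slc40a1 was the more widespread. Slc40a1 (chr1:45908068-45926523, minus strand), the iron exporter ferroportin, had a read in 58 of 164 cells (35.4%, 28.1 to 43.2%) with a mean of 213 CPM. Its capture means ran from 0 in 19c and 21c to 454 CPM in 9c at P60 and from 77.1 in 32 to 374 CPM in 38 at P120. Slc11a1 (chr1:74375195-74386062, plus strand), which moves iron out of phagocytic vesicles, had a read in 21 cells (12.8%, 8.10 to 18.9%). A single cell of capture 32 at 12680 CPM held 54.7% of its thinned reads, and 3 cells held 92.5%. Its capture means were 610 CPM in 32, 428 in 38, 70.9 in 36 and 10.3 in 28 at P120, and at most 20 CPM at P60. The share of cells with an Slc11a1 read was 9.52% in capture 32, which had the highest mean, and 36.4% in capture 36, so that the order of captures by level and by share differed. At this depth no cell held reads of both Tfrc and Slc11a1.

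Heme oxygenase was read in few cells. Hmox1 (chr8:75093621-75100589, plus strand), which releases iron from heme, had a read in 4 of 164 cells (2.44%, 0.668 to 6.13%), and 83.3% of its thinned reads came from 1 cell of capture 9c at 2200 CPM. That cell held 15400 CPM of Fth1 and 0 of 12 monocyte and macrophage genes. Ireb2 (chr9:54863789-54912530, plus strand) had a read in 28 cells (17.1%, 11.7 to 23.7%) and never exceeded 1640 CPM. Its capture means ran from 0 in 20c and 21c to 146 CPM in 19c at P60 and from 35.2 in 38 to 157 CPM in 32 at P120, which overlap. Tfrc and Ireb2 were each found in 28 cells, and 6 cells held both. Monocyte and macrophage genes (at least 3 of 12) were found in 12.1% of the 58 cells with an Slc40a1 read and in 5.66% of those without. For Tfrc these shares were 14.3% and 6.62%. They were found in 0 of 21 cells with an Slc11a1 read, although the 4 cells highest in Slc11a1 each held a read of 1 of the 12 genes, and the top 2 of them held 620 and 3460 CPM of the macrophage gene Cd68. The part of these genes in the levels was not tested.

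**Figure D1:**
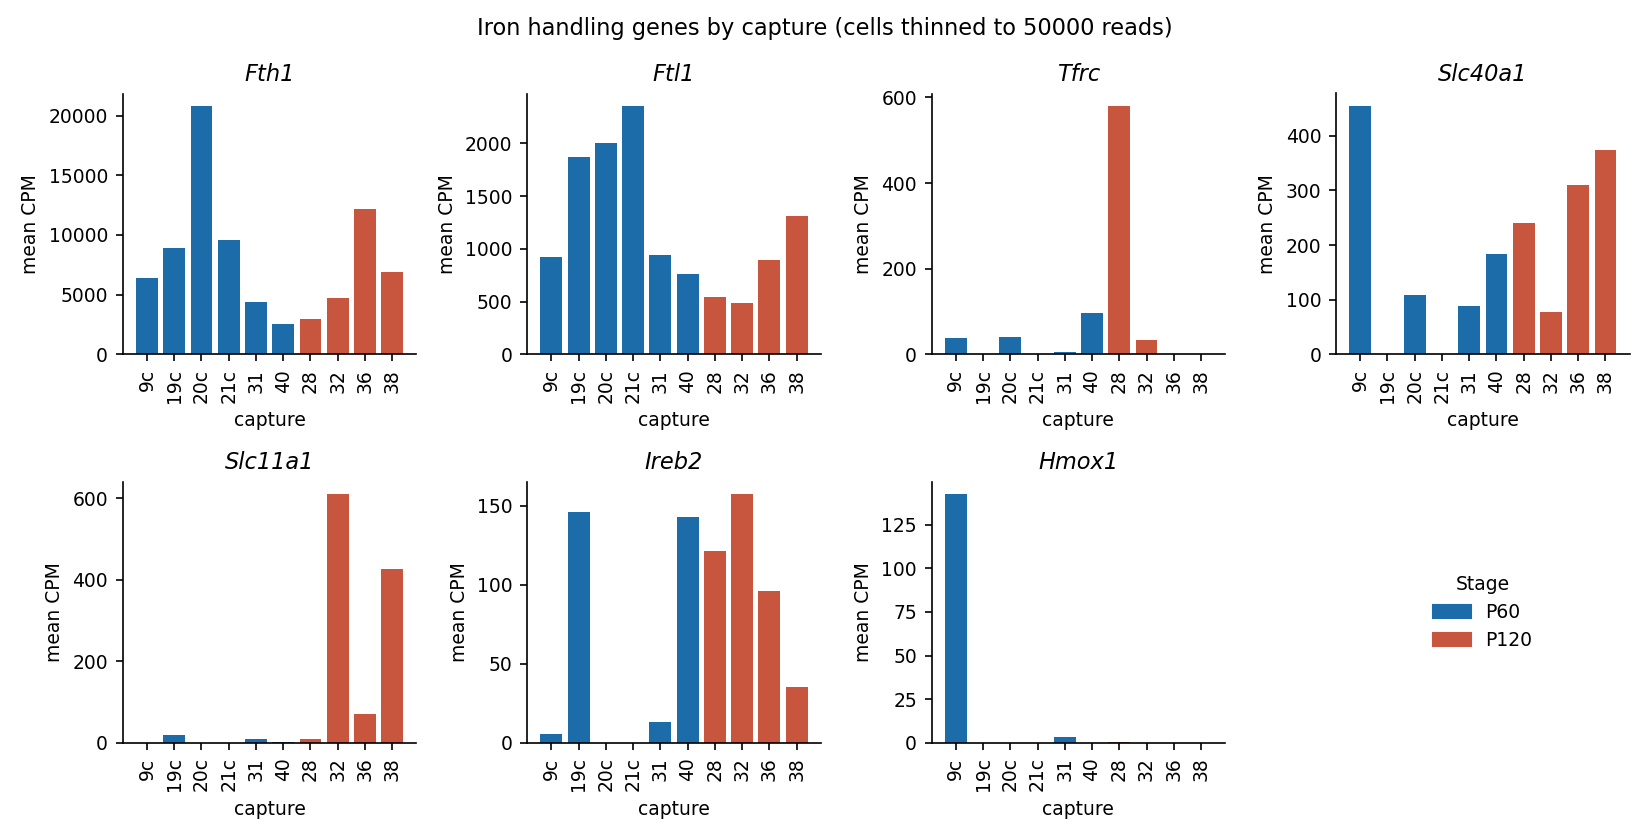
Bars give the mean CPM of each gene over the cells of a capture, each cell thinned to 50000 reads, for the 10 captures with at least 3 such cells; blue bars are P60 and red bars P120, and each panel has its own axis. Tfrc stands at 580 CPM in capture 28 and at most 97.3 CPM elsewhere, while Slc11a1 is highest in captures 32 and 38 and Hmox1 in 9c.

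To compare the ages, all reads of a capture were summed and tested with edgeR over 8346 genes. At an adjusted p under 0.05 the test called 10 genes, or 0.120% of those tested, with 5 higher and 5 lower at P120. When single captures were left out this count ran from 1 without 10c, which held 119240 reads in all, to 16 without 21c. Of the 7 iron genes, 6 passed the filter on low counts and 0 were called, with 1 at an unadjusted p under 0.05. Of all 8346 genes tested, 443 had an unadjusted p under 0.05 in edgeR. DESeq2, which called 75 genes, also called 0 of them. The median log2 fold change of all genes tested was 0.26.

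No difference between the ages was detectable for the ferritins. In summed captures Fth1 was 6882 ± 6923 CPM (SD over 8 captures) at P60, from 260 to 22851 CPM. The P120 value was 6257 ± 5633 CPM (SD over 4 captures), from 2470 to 14605 CPM. Its log2 fold change was 0.55 with a standard error of 1.20 (edgeR quasi-likelihood test, adjusted p = 1.0), and its sign turned to -0.13 with RLE scaling and to -1.21 without capture 36. The low end at P60 was capture 10c, whose 13 cells had a median of 451 reads. Ftl1 was 1047 ± 654 CPM (SD, n = 8) and 779 ± 375 CPM (SD, n = 4), with a log2 fold change of 0.12 and a standard error of 1.33 (edgeR, adjusted p = 1.0). Under RLE scaling the value for Ftl1 was -0.53, so that neither ferritin had a direction that held across scalings.

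The other members had positive values that did not pass the test. Tfrc was 25.9 ± 27.2 CPM at P60 (SD, n = 8) against 90.4 ± 139 CPM at P120 (SD, n = 4), with a log2 fold change of 1.52 and a standard error of 1.96 (edgeR, adjusted p = 1.0), and the value was -0.34 without capture 28. Slc11a1 was 4.89 ± 10.1 CPM (SD, n = 8) and 131 ± 117 CPM (SD, n = 4), and its log2 fold change of 4.36 with a standard error of 1.96 had an adjusted p of 0.756 in edgeR. The highest P60 capture had 29.05 CPM of Slc11a1 and the lowest P120 capture 11.9 CPM, so the ages overlapped. Without capture 19c, the highest at P60, its log2 fold change was 6.31 (edgeR, adjusted p = 0.362), and with thinned cells it was 5.99 with an unadjusted p of 0.000367 (edgeR, adjusted p = 0.124). Slc40a1 had a log2 fold change of 2.85 with a standard error of 1.47 (edgeR, adjusted p = 0.933) and Ireb2 of 1.73 with a standard error of 1.77 (edgeR, adjusted p = 1.0). Slc40a1 was at 1.52 without capture 36 and at 1.46 with thinned cells, and Ireb2 ran from 1.13 without 36 to 2.63 without 19c. Hmox1 did not pass the filter, with 6.56 ± 17.2 CPM at P60 (SD, n = 8) and at most 0.565 CPM in a P120 capture.

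All P120 captures came from sequencing runs that also held the P60 captures 31 and 40. Within these runs the log2 fold change was 1.50 for Fth1, 0.73 for Ftl1, 0.98 for Tfrc, 4.78 for Slc11a1, 2.09 for Slc40a1 and 1.52 for Ireb2, with 0 of 7 genes called by edgeR. Over all 12 captures, the 6 basophil and mast cell genes had a median log2 fold change of 3.68, with 5 of 6 at an unadjusted p under 0.05 and 0 called. The 5 supporting cell genes tested had a median of -2.90, with 2 at an unadjusted p under 0.05 and 0 called, and Tectb was at -9.14 (edgeR, adjusted p = 0.0532). Among all 8346 genes, 443 had an unadjusted p under 0.05 in edgeR. The part of both marker lists in the values of the iron genes was not tested. In these summed captures, fewer cells with a transcript and less transcript per cell cannot be told apart, and the shares above give the cells alone. Averaged over the captures, the share of cells with a read was 15.8% at P60 and 10.4% at P120 for Tfrc, 6.84% and 21.03% for Slc11a1, and 28.1% and 29.04% for Slc40a1, and the captures of the 2 ages overlapped for each.

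Other genes of iron handling were read from 8 lists of 61 genes, of which 36 were tested between the ages. A total of 0 were called higher and 0 lower, and their median log2 fold change was -0.37. An unadjusted p under 0.05 was found for 4 of them, against 443 of all 8346 genes tested in edgeR. Levels here are CPM over all reads and are not set against each other per length. The secreted iron binding proteins were the most abundant, with Lcn2 (lipocalin 2, which binds iron-loaded siderophores) at 5234 CPM and Ltf (lactoferrin) at 4782 CPM. Between the ages their log2 fold changes were -0.01 and -0.36, and neither was called. Of the regulators, Fbxl5, which targets the iron regulatory proteins for degradation, was at 457 CPM, and Nfe2l2, a transcription factor of the oxidative stress response, at 191 CPM. Fbxl5 had a read in 32.3% of cells and Ireb2, its target, in 17.1%.

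Genes that pass iron on to heme and mitochondria were also read. Alas1, the first enzyme of heme synthesis outside erythroid cells, was at 295 CPM, and Fech, which inserts iron into heme, at 39.5 CPM, while Alas2 had 1 read. Between the ages Fech had a log2 fold change of -5.70 with a standard error of 2.29 (edgeR, unadjusted p = 0.0129, adjusted p = 0.606) and was not called. Slc25a37, the mitochondrial iron importer mitoferrin 1, was at 235 CPM and Lyrm4, a part of iron-sulfur cluster assembly, at 38.2 CPM. The iron chaperone Pcbp1 was at 94.5 CPM and Ncoa4, the receptor that sends ferritin to the lysosome, at 68.5 CPM. Hmox2 was at 44.6 CPM and Blvrb, a biliverdin reductase, at 25.4 CPM, so that the second heme oxygenase was read more often than Hmox1 at 3.60 CPM. Of uptake genes other than Tfrc, Hfe was at 27.6 CPM and Tf (transferrin) at 12.6 CPM. The heme exporter Flvcr1 was at 22.9 CPM and Abcg2 at 12.3 CPM.

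The balance of storage against uptake was taken as the log2 ratio of Fth1 to Tfrc reads, each divided by the length of its transcript (0.929 and 4.89 kb), with 1 read added to each sum. Fth1 exceeded Tfrc in each of 10 captures. At P60 the balance was 7.10 in capture 40, 9.75 in 9c, 11.32 in 20c and 11.75 in 31, and at P120 it was 4.76 in 28 and 9.49 in 32. In the 4 captures with no Tfrc read, 3 reads in place of none would give 12.41 in 19c and 12.04 in 21c at P60. At P120 they would give 13.52 in 36 and 13.63 in 38. These values allow for counting error alone and are no lower bound over other cells. Cells with a Tfrc read held a median of 150 CPM of it, and 3 reads in a cell are 60 CPM. The 6 captures of P60 averaged 11.26 ± 2.56 (SD) and the 4 of P120 11.14 ± 5.03 (SD), a difference of -0.11 that was much smaller than either spread. These means take the 4 captures with no Tfrc read at the value that the added read gives (13.998 in 19c, 13.62 in 21c, 15.10 in 36 and 15.21 in 38). With 20 CPM added to each mean in place of 1 read, the difference was -0.85. Without capture 28 it was 2.01, and a direction between the ages could not be read from these captures.

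**Figure D2:**
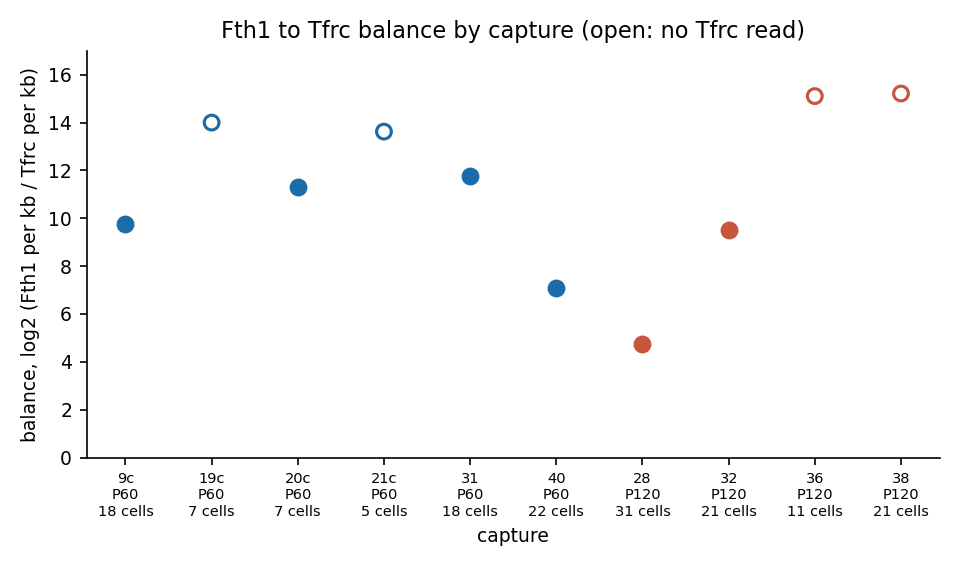
Points give the log2 ratio of Fth1 to Tfrc reads per kb in each of 10 captures, with the age and the number of thinned cells under each, 1 read added to each sum, and open points for captures with no Tfrc read. The lowest value is 4.76 in capture 28 and the ages overlap, while the open points, up to 15.21 in capture 38, are set by the added read (3 reads there would give 13.63).

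In single cells, high Fth1 and Tfrc were seldom found together. The 28 cells with a Tfrc read had a median of 670 CPM of Fth1, with quartiles of 455 and 1625 CPM, against 3790 CPM in the 136 cells without, with quartiles of 805 and 9335 CPM. When the cells were ordered by Fth1, Tfrc was read in 18 of the 55 lowest cells, in 8 of the next 55 and in 2 of the 54 highest. Tfrc exceeded Fth1 per kb in 2 cells, both of capture 28. The rank correlation of Fth1 and Tfrc was -0.262 over 164 cells, -0.222 over 133 cells without capture 28, and -0.313 as the mean within the 5 captures of at least 10 cells that held a Tfrc read. Cells with a Tfrc read also held more genes, with a median of 2573 genes at 50000 reads against 936.5 in cells without, and the part of this difference in the correlation was not tested.

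**Figure D3:**
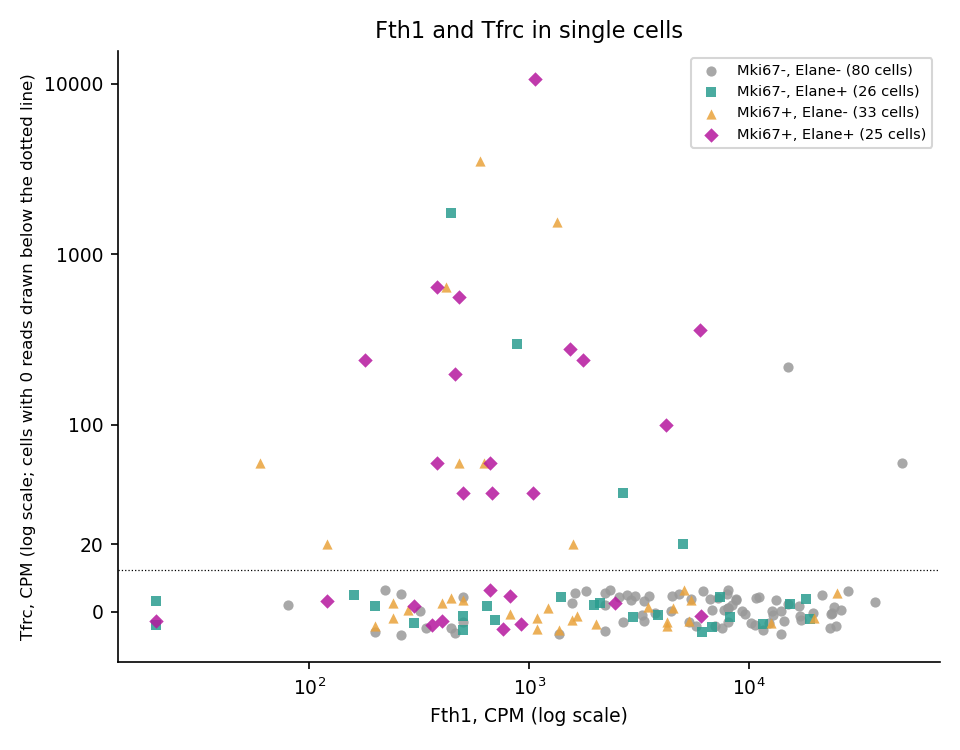
Each point is 1 of 164 cells with its Fth1 and Tfrc levels in CPM at 50000 reads, both axes on log scales, and cells with no Tfrc read are drawn below the dotted line with a small random spread. Colours and shapes give the classes by a read of Mki67 and Elane, and the 28 cells above the line lie mostly at low Fth1.

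The balance was also read against Mki67, a marker of dividing cells, and Elane, the neutrophil elastase gene of granulocyte precursors. The choice of both genes rests on earlier values of these cells, so what follows is a description with no test. At 50000 reads 58 cells held an Mki67 read and 51 an Elane read, with 25 cells holding both. Elane was read in 66.8% of the 211 cells when all reads were used, and in 31.1% of the thinned cells, so cells without a read at this depth may still hold some. The rank correlation with Mki67 was -0.447 for Fth1, -0.356 for Ftl1 and 0.431 for Tfrc over 164 cells. With Elane it was -0.366, -0.238 and 0.388.

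Cells with an Mki67 read held less ferritin mRNA in each capture compared. Among the 7 captures with at least 3 cells of both kinds, Fth1 was lower in the Mki67-positive cells in 7 of 7 and so was Ftl1, while 0.526% of 11414 genes were lower and 0.482% higher in every capture. The other 5 members were neither. Fth1 was 1300 against 10410 CPM in 9c, 1610 against 5137 in 31, 1115 against 4013 in 40, 1479 against 4390 in 28, 1613 against 6591 in 32, 7210 against 15006 in 36 and 6364 against 7033 CPM in 38. The difference was thus wide in 6 captures and small in 38, and the mean log2 ratio was -1.61 ± 0.87 (SD, n = 7). For Ftl1 the mean log2 ratio was -1.12 ± 0.60 (SD, n = 7), with the narrowest gap in capture 40 at 691 against 835 CPM.

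Tfrc was found mostly in the Mki67-positive cells. It was read in 22 of 58 Mki67-positive cells (37.9%) and in 6 of the negative cells (5.66%). Within captures it was 1177 against 20 CPM in 28, 87.5 against 0 in 32, 85 against 0 in 9c and 25 against 0 CPM in 31. Capture 40 went the other way with 32.7 against 162 CPM, and 36 and 38 had no thinned Tfrc read. Both kinds of cell held a Tfrc read in 2 captures alone, where the balance of the Mki67-positive cells minus that of the others was -7.36 in 28 and 0.40 in 40, which differ in sign. In the other 5 captures the size of the difference depends on the value added to a sum of 0 and on the number of cells. Over 7 captures its mean was -4.72 ± 3.55 (SD) with 1 read added to each sum and -2.91 ± 2.59 (SD) with 20 CPM added to each mean. Mki67-positive cells held a median of 2026 genes against 860 in the others, and the summed granulocyte precursor genes were higher in them in 7 of 7 captures. The summed leukocyte genes were lower in them in 7 of 7, and the basophil and mast cell genes and the monocyte and macrophage genes were each higher in 6 of 7. The part of these in the ferritin and Tfrc values was not tested.

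**Figure D4:**
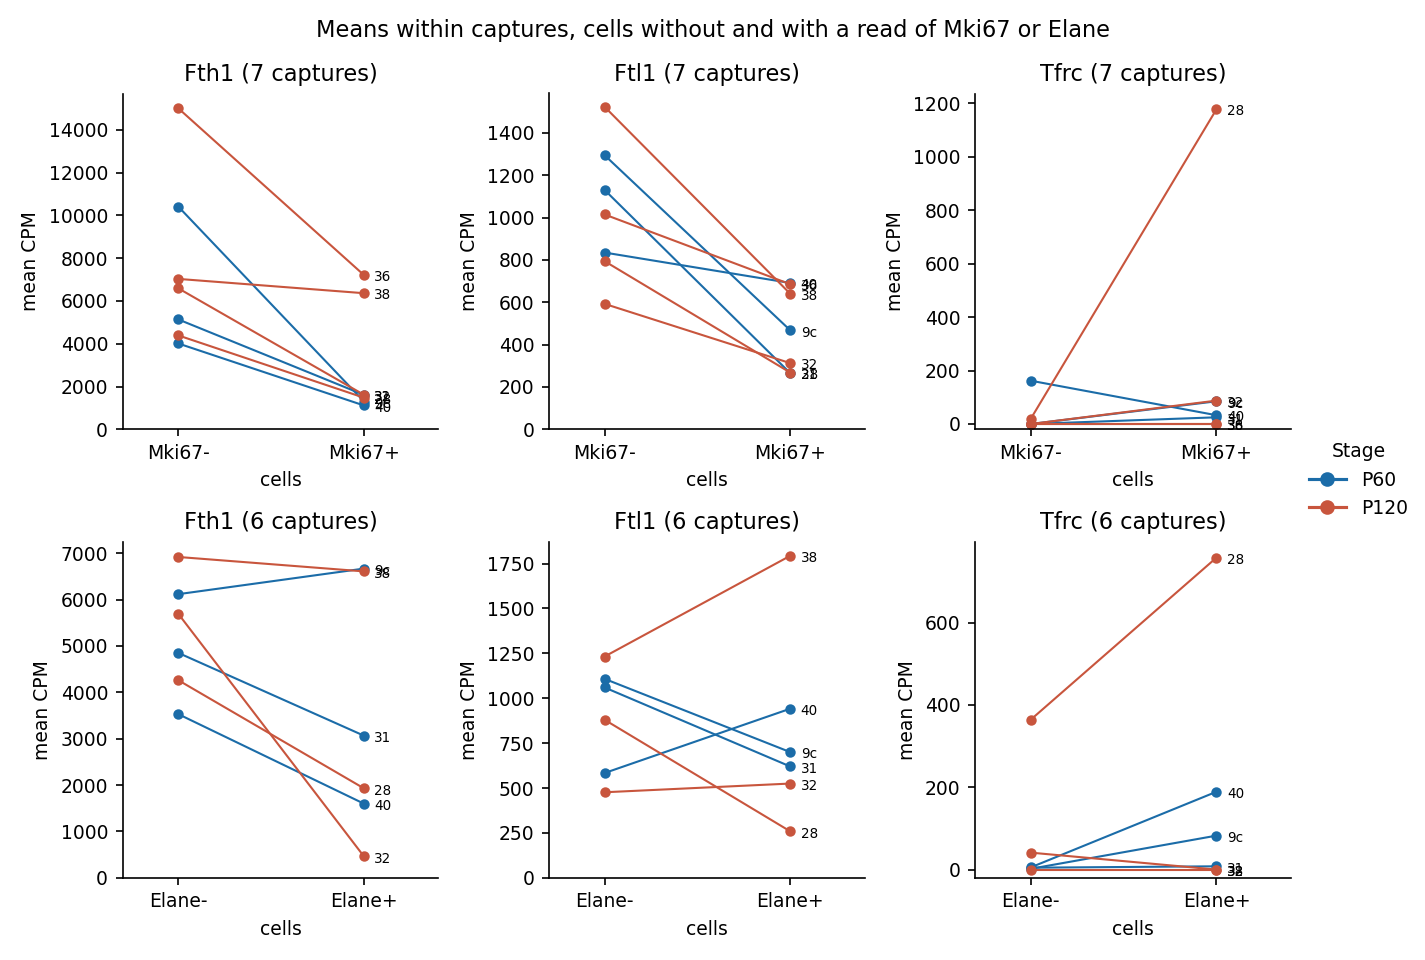
Lines join the mean CPM of cells without and with a read of Mki67 (upper row, 7 captures) or Elane (lower row, 6 captures) within a capture, for Fth1, Ftl1 and Tfrc, with P60 in blue, P120 in red and the capture beside the right end. For Fth1 and Ftl1 the lines slope down in each of the 7 captures split by Mki67, while those for Ftl1 split by Elane cross.

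With 1 read as the cut, the split by Elane was less even. Among 6 captures, Fth1 was lower in the Elane-positive cells in 5, with 460 against 5691 CPM in 32, 1598 against 3529 in 40, 1928 against 4260 in 28, 3064 against 4849 in 31 and 6607 against 6918 in 38, and higher in 9c with 6668 against 6116 CPM. Its mean log2 ratio was -1.07 ± 1.33 (SD, n = 6), smaller than the spread between captures. Cells at 20 or 40 CPM of Elane count as positive. In 9c these held 4180, 15400, 11520 and 18080 CPM of Fth1, and the other positive cells 500, 1540, 360 and 1760 CPM. In 38 such a cell held 18860 CPM, and the other positive cells 760 and 200 CPM. In 32 such cells held 500 and 820 CPM, and the other positive cells 20 and 500 CPM. In 31 such cells held 6080, 1400 and 6760 CPM, and the other positive cells 680 and 400 CPM. In 40 such cells held 2100, 2960 and 6060 CPM, and the other positive cells 120 to 2660 CPM. In 28 such cells held 20 to 8220 CPM and the other positive cells 180 to 5980 CPM. The part of such cells in the split was not tested. A split that asked for at least 3 Elane reads, which takes them out of the positive class, is given with the alternatives at the end. Ftl1 was lower in 3 and higher in 3. A total of 0 members were higher in every capture and 0 lower, where 2.87% and 1.27% of 11321 genes were. Tfrc was read in 18 of 51 Elane-positive cells (35.3%) and in 10 of 113 negative cells (8.85%), and was higher in 4 of 6 captures, with the widest gap in capture 40 at 189 against 5.45 CPM. In the 4 captures with a Tfrc read in both kinds of cell, the balance of the Elane-positive cells minus that of the others was -5.86 in 40, -4.28 in 9c, -2.20 in 28 and -1.62 in 31. The last rests on 2 and 3 Tfrc reads. In 32 and 38 the Elane-positive cells held no Tfrc read, so that the value there is set by the added read and the number of cells. Over all 6 captures the mean was -2.86 ± 1.92 (SD) with 1 read added to each sum and -1.88 ± 1.396 (SD) with 20 CPM added to each mean. Elane-positive cells held a median of 2187 genes against 870 in the others, and the 6 other granulocyte precursor genes summed to between 5425 and 16876 CPM in them and to between 83.1 and 553 CPM in the others. The summed leukocyte genes were lower in the Elane-positive cells in 6 of 6 captures, with 8308 to 14112 CPM against 13387 to 20077 CPM. The summed monocyte and macrophage genes were higher in 4 of 6, with up to 5429 CPM against at most 911 CPM, and the part of these lists was not tested.

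The cells were also grouped by both genes at once. The 80 cells with neither read had a median of 7360 CPM of Fth1, and Tfrc was read in 2 of them (2.5%). The 26 cells with Elane alone had a median of 2030 CPM and Tfrc in 4 (15.4%), and the 33 cells with Mki67 alone 1220 CPM and Tfrc in 8 (24.2%). The 25 cells with both had a median of 660 CPM and Tfrc in 14 (56%). Quartiles of Fth1 were 2635 and 12885 CPM with neither read and 380 and 1060 CPM with both, so these did not overlap, whereas those with Elane alone (500 and 6590 CPM) and Mki67 alone (440 and 4220 CPM) did. Without capture 28 the shares with a Tfrc read were 2.74%, 11.8%, 19.2% and 52.9% in the same order, and the mean Tfrc level with both reads was 62.4 in place of 545 CPM. The median number of genes per cell followed the same order, from 783.5 with neither read to 2552 with both. Most cells with Elane alone held only 20 or 40 CPM of Elane. Those with more Elane held 2660, 700, 640, 500, 440, 300 and 200 CPM of Fth1, mostly below the median of 2030 CPM of this class. The place of Elane alone among the classes thus holds for a cut of 1 read, and another cut was not tested here.

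The other members were read against the same classes. Slc40a1 was read in 52% of cells with both reads and in 32.5% of cells with neither, and within captures it was higher in the Mki67-positive cells in 2 of 7. Ireb2 was read in 40.0% of cells with both reads and in 10.0% with neither, and was higher in the Mki67-positive cells in 5 of 7 captures. In the Elane-positive cells Ireb2 was higher in 3 and lower in 3 of 6 captures, and Slc40a1 higher in 2 and lower in 4. Cells with both reads also held more genes, and the part of this in these shares was not tested. Slc11a1 was read in 3 of 51 Elane-positive cells and in 18 of 113 negative cells. Hmox1, at 4 cells, was too rare to be compared.

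Across cells, the genes most like Fth1 in rank were Cxcl2 (0.594), Gm6977 (0.590), Il1r2 (0.578), Trem1 (0.545) and Retnlg (0.520), out of 1562 genes with a read in at least 25% of the 164 cells. Gm6977 is a processed pseudogene whose transcript matched Fth1 at 90.5% over 524 bases, and reads of the 2 genes may not be told apart. Cxcl2 is a chemokine, Il1r2 a decoy receptor for interleukin 1, and Trem1 a receptor of myeloid cells. Most like Tfrc were Atad2 (0.540), Uhrf1 (0.539), Rpl10a (0.513), Srek1 (0.510) and Rpl6 (0.509). Uhrf1 maintains DNA methylation at replication, and Rpl10a and Rpl6 are ribosomal proteins. Retnlg and Cxcl2 were also among the 5 genes most opposite to Tfrc, at -0.329 and -0.299, and were chosen there after the values were seen.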

How the data were processed

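Cells were sorted for GFP, captured on the Fluidigm C1 and sequenced as full-length cDNA. The authors aligned the reads with STAR to GRCm38 with the vM11 annotation, removed endothelial and outlier cells, and deposited read counts per gene and cell without normalization or molecular identifiers. A second deposited table gives age, capture and run, and a GFP score that the authors scaled and that was not used here. Symbols, positions and transcripts came from GENCODE vM21, which matched 48349 of 48709 identifiers. The submitters' processing notes name STAR and mm10.

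Counts summed per capture were tested with edgeR 4.0.16 (quasi-likelihood F test after TMM scaling and filterByExpr, with p-values adjusted over all genes by Benjamini-Hochberg at 0.05) in R 4.3.3, with DESeq2 1.42.0 as the alternative. A standard error is the log2 fold change over the root of the F statistic. Capture numbers come from the deposited table. Each capture pooled several mice, and p-values measure the spread between captures. For shares and balances each cell was thinned to 50000 reads without replacement, which left out 47 cells, and intervals are exact Clopper-Pearson 95% intervals. The transcript length is that of the lowest-numbered APPRIS principal transcript. Captures entered with at least 3 thinned cells, and a split with at least 3 cells of each kind; ratios within captures had 20 CPM added to both sides, and the count of genes that went one way in every capture took genes with at least 10 thinned reads. Near copies were aligned with blastn 2.17.0. Scripts used Python 3.11.15, numpy 2.4.6, pandas 2.3.3, scipy 1.17.1 and matplotlib 3.10.9, and were tested on simulated data.

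The members, Mki67, Elane and all lists were chosen with earlier results of these data known. Genes named are the members, Mki67, Elane, the 3 ferritin copies with most reads, the 2 genes of each pathway list with the highest CPM, and the 5 genes most like Fth1 and Tfrc. Other genes were named after their values were seen. These are Tectb for its age value, Cd68 for its level, Keap1 and Alas2 for a hairpin, and Hes5, Hba-a2 and Klf1 for having no read. No doublet caller was run.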

Additional observations from a re-analysis of the deposited data

Results flagged for a closer look

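Within the captures of an age or of a split, 32 groups of values were checked for a capture far from the rest, and 7 values in 7 groups were found. The limit for a flag was one that about 1 in 20 groups would pass by chance. That rate does not hold where most values of a group are 0, as for Hmox1. The number flagged is thus not set against chance. Fth1 in the summed capture 20c was 22851 CPM at P60, with the next capture at 8002 CPM. Slc11a1 in capture 19c was 29.05 CPM at P60, with the next at 7.11 CPM. Hmox1 was 48.9 CPM in capture 9c at P60, with the next at 3.55 CPM, and 0.565 CPM in capture 28 at P120, with 0 in the other captures of that age. In the split by Elane, the log2 ratio of Fth1 was -3.57 in capture 32, with the next at -1.14, and that of Hmox1 was 4.09 in capture 9c, with the next at 0. In the split by Mki67, the log2 ratio of Hmox1 was -3.79 in capture 9c, with the next at -0.09. Hmox1 was read in 4 thinned cells in all, and Slc11a1 in 1 thinned cell of capture 19c.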

How the results depend on the processing

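The count of members called between the ages was 0 in each of 18 alternatives. Signs turned for 3 genes, none of them called: Fth1 was -0.13 with RLE scaling and -0.13 with DESeq2, and Ftl1 was -0.53 with RLE scaling, -0.054 with no filter, -0.49 with thinned cells and -0.53 with DESeq2. When captures were left out, Fth1 ran from -1.21 without 36 to 1.22 without 20c, Ftl1 from -0.90 without 36 to 0.43 without 32, with values below 0 also without 9c, 10c and 17c, and Tfrc from -0.34 without 28 to 1.95 without 36. Hmox1, not tested in the main comparison, was -5.23 with no filter and -4.09 within the runs of both ages, and was not called. RLE scaling moved the median log2 fold change of all genes from 0.26 to -0.10. All genes called numbered 10 in edgeR, 1 with RLE scaling, 22 with no filter, 2 with thinned cells, 6 without shallow cells, 2 within the runs of both ages and 75 in DESeq2.

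The difference in balance between the ages was 0.22 with all reads, and ran from -1.47 without capture 38 to 2.01 without 28. In the split by Elane, a positive class of at least 3 reads left 3 captures, with 1 member higher and 3 lower in every one and a balance difference of -6.10; at least 10 reads, an alternative added after the data were seen, gave 1, 3 and -6.69. One member was lower in every capture with 20000 reads, with another random draw and without capture 9c, and 0 or 1 when single captures were left out. In the split by Mki67, 1 member was lower in every capture with 20000 reads, and 1 was higher with at least 10 reads. The shares of all genes given above hold for the main splits alone. They were not taken at these settings, so these counts of members cannot be set against them, least of all where fewer captures were left. No other alternative moved the balances or the splits beyond the spread between captures. The share of cells with a read moved beyond that spread for Fth1, Ftl1 and Ireb2. With at least 10 of 50000 reads asked for, Fth1 fell from 100% to 94.5% of cells and Ireb2 from 17.1% to 7.93%. Ftl1 then fell below 87.6%, the low end of its exact interval. Tfrc at 8.54%, Slc40a1 at 15.9% and Slc11a1 at 3.66% also fell below the low ends of theirs. These 3 stayed within their spread between captures, which was wide. With all reads of every cell, Fth1 was at 99.1% and Ireb2 at 28.4%. No paired analysis was possible because the captures of the 2 ages share no numbers.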
